A study of Homo sapiens with 12 samples.

Results

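MADD and the genes of the TBC1D and DENND families are regulators of Rab GTPases, and they were taken here as MADD together with every gene whose annotated symbol starts with TBC1D or DENND. The deposited tables held exon events for 43 of these genes (MADD, 29 TBC1D genes and 13 DENND genes) among 12984 genes in all. The members accounted for 14 of 2023 events in the RASL-seq table, in 10 genes, and for 564 of 114816 events in the RNA-seq table. A further 16 protein-coding symbols of the families, among them DENND1C, TBC1D10C and several near-identical TBC1D3 copies, had no event of their own in either table. The rule for members uses symbols and no measured value, but it was written with earlier results of these data known.

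Rab GTPases are small membrane-bound switches that mark the compartments of the secretory and endocytic pathways and recruit effectors when they carry GTP. Proteins with a DENN domain, such as MADD and the DENND proteins, are guanine nucleotide exchange factors that load Rabs with GTP. Proteins with a TBC domain, such as most TBC1D proteins, are GTPase-activating proteins that speed GTP hydrolysis and so switch Rabs off. In epithelial cells Rab-dependent traffic is known for its part in apical and basolateral sorting and in the turnover of junctions.

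The study compared PC3E with GS689.Li, a pair of sublines of the human prostate cancer line PC-3, of which PC3E is the more epithelial and GS689.Li (GS689 below) the more mesenchymal and invasive. Both are labelled wild type, were untreated, and grew in the same medium with serum and G418, so every library shares that exposure, and each subline is a single derived population. Every assay had 3 libraries per line: RNA-seq on a HiSeq instrument, and RASL-seq on a MiSeq, in which oligonucleotide pairs that meet at chosen exon junctions are ligated on RNA and counted. Nothing in the labels says whether the 3 libraries of a line came from separate cultures, so the spread that the tests use may be technical.

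Each event was a cassette exon with an inclusion count and a skipping count, and the inclusion level was the share of inclusion. The RASL-seq table held 615758 to 954120 counts per library, all on plus-strand genes, which leaves 25 minus-strand members (TBC1D5, DENND5A and DENND2D among them) to RNA-seq. The library PC3E replicate 2 stood apart from the other PC3E libraries (chi-square per degree of freedom of 6.33 and 4.41 against 2.27 between the other 2), and results that turn on it are given without it as well. The line labels could be checked on 4 epithelial markers (LLGL2, LSR, OCLN and SPINT2), all 4 lower in GS689, with summed RASL-seq counts of 702 to 937 in PC3E libraries and 224 to 358 in GS689 libraries. Of the mesenchymal markers VIM and ZEB1, only VIM could be tested and was higher in GS689, and their summed counts were 130 to 191 in PC3E and 2585 to 4116 in GS689 libraries. The part of this shift between the lines in the members' values was not tested. The other 8 of 12 epithelial and 5 of 7 mesenchymal markers, and all prostate luminal, neuroendocrine and haematopoietic markers of the lists, had no RASL-seq event. The RNA-seq table names its libraries only as set 1 and set 2, with 3 libraries each and no line. Its values are therefore given per library, with no test, and no set is assigned to a line.

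A MADD exon of 60 nt and a TBC1D13 exon of 41 nt differed most between PC3E and GS689 among the member exons tested, and both were included more in GS689. A TBC1D23 exon of 45 nt and a TBC1D24 exon of 18 nt had inclusion levels that differed between the RNA-seq sets. These 4 exons carry most of what follows. They are shown 5′ to 3′ as GENCODE 29 transcripts give them (GRCh38 annotation), with the exon in capitals and the last 10 nt of the exon before it and the first 10 nt of the exon after it in lower case.
MADD 60 nt exon: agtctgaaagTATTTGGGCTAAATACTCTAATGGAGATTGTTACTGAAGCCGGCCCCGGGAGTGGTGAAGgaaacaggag
TBC1D13 41 nt exon: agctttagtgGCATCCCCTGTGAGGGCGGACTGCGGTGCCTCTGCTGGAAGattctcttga
TBC1D23 45 nt exon: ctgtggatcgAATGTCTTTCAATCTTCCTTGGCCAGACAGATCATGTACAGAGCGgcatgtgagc
TBC1D24 18 nt exon: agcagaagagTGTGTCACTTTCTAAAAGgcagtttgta

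On hg19, the build of the deposited tables, the MADD exon lies on the plus strand of chromosome 11 from 47310519 to 47310578 and is coding. Its length is a multiple of 3, it holds no stop codon in the annotated frame, and its GC content is 48.3%. GENCODE 29 has 4 protein-coding transcripts with the exon and 6 transcripts without it, 5 of which are protein-coding. The TBC1D13 exon lies on chromosome 9 from 131553014 to 131553054 and is coding. Its 41 nt leave a remainder of 2 when divided by 3, so skipping it shifts the reading frame, and its GC content is 68.3%. It is present in 2 protein-coding transcripts and skipped in 1 transcript, which is annotated as a processed transcript without a coding sequence. The TBC1D23 exon, on chromosome 3 from 100030677 to 100030721 with a GC content of 44.4%, is in 2 protein-coding transcripts and is skipped in 1 protein-coding and 1 processed transcript. The TBC1D24 exon, on chromosome 16 from 2547711 to 2547728, is the shortest and has the lowest GC content of the 4, at 33.3%, and is in 3 protein-coding transcripts and absent from 4 transcripts. Both lengths are multiples of 3.

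Inclusion of MADD's 60 nt exon rose in GS689. MADD is a DENN-domain exchange factor for Rab3 and Rab27 that also binds a tumour necrosis factor receptor through its death domain. The PC3E libraries had RASL-seq inclusion levels of 25.0%, 23.3% and 21.7% (6, 10 and 5 inclusion counts against 18, 33 and 18 skipping counts). The GS689 libraries had 57.1%, 78.7% and 83.3% (28, 37 and 25 against 21, 10 and 5). The groups did not overlap, and most of the spread was within GS689, where replicate 1 lay below the other 2. Mean inclusion went from 23.3% ± 1.63 to 73.1% ± 14 (SD, n = 3 each), a difference of 49.7 percentage points, with an adjusted p of 0.00364 in the quasi-binomial test moderated with limma over 1124 exons.

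Inclusion of TBC1D13's 41 nt exon also rose in GS689. TBC1D13 is a TBC-domain protein known as a GTPase-activating protein for Rab35. Its PC3E libraries had inclusion levels of 12.5%, 30.0% and 20%, on 8, 10 and 5 counts. Its GS689 libraries had 95.5%, 91.7% and 87.5%, on 22, 12 and 16 counts. All 3 PC3E libraries favoured skipping and all 3 GS689 libraries favoured inclusion, with means of 20.8% ± 8.78 and 91.5% ± 3.98 (SD, n = 3 each). The difference was 70.7 percentage points (adjusted p = 0.00253, limma-moderated quasi-binomial test). The counts were low, with a mean of 7.67 per PC3E library and 16.7 per GS689 library, and this exon was not tested when a mean of 20 counts was required.

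**Figure D1:**
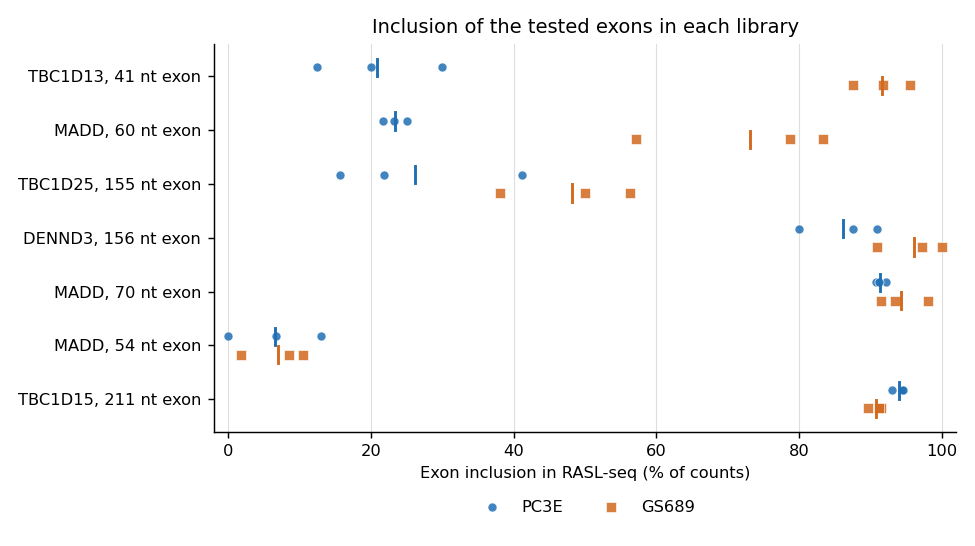
RASL-seq inclusion level (percent of counts, x axis) of the 7 member exons tested, with circles for PC3E libraries, squares for GS689 libraries and short vertical lines for the means of 3. The TBC1D13 and MADD 60 nt exons are far apart between the lines, the TBC1D15 exon is apart by 3.26 points, and the other 4 exons overlap or touch.

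Of the 7 member exons tested, in 5 genes, 2 passed (28.6%, beside 5.69% of all 1124 exons tested, where MADD and TBC1D13 were known to differ when the members were chosen, so the share is no independent evidence), both with higher inclusion in GS689, as 2.14% of all exons had. The libraries of the lines did not overlap for 3 of the 7, beside 23.6% of all exons. The median absolute difference of the 7 was 9.88 points, and over all exons it was 2.14 points. Both of these comparisons include the same MADD and TBC1D13 exons, so they are no independent evidence either. Depth was not matched between the 7 and all exons.

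The other tested exons of the exchange factors did not pass. MADD has a 70 nt coding exon, on chromosome 11 from 47348289 to 47348358, that was mostly included, at 92.2%, 90.7% and 91.1% in PC3E and 98.0%, 91.4% and 93.4% in GS689 (2.95 points, adjusted p = 0.597, limma-moderated test). A MADD exon of 54 nt, from 47314094 to 47314147, was mostly skipped, at 13.0%, 6.67% and 0% in PC3E and 1.79%, 8.57% and 10.5% in GS689 (0.39 points, adjusted p = 0.974, same test). Thus 1 of the 3 MADD exons tested changed, and the test of whether MADD's exons differ from each other was not made. DENND3, an exchange factor for Rab12, has a 156 nt coding exon on chromosome 8 from 142170731 to 142170886. Its inclusion levels were 80.0%, 90.9% and 87.5% in PC3E and 90.9%, 97.1% and 100% in GS689. PC3E replicate 2 and GS689 replicate 1 met at 90.9%, and the difference of 9.88 points did not pass (adjusted p = 0.462, limma-moderated test).

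Among the GTPase-activating proteins, TBC1D25, which acts on Rab33B and is known from autophagosome maturation, has a 155 nt coding exon on chromosome X from 48403257 to 48403411. Its inclusion levels were 15.6%, 41.2% and 21.9% in PC3E and 56.2%, 38.1% and 50% in GS689. PC3E replicate 2 reached into the GS689 range. The means of 26.2% ± 13.3 and 48.1% ± 9.22 (SD, n = 3 each) differed by 21.9 points, which did not pass (adjusted p = 0.158, limma-moderated test). Without PC3E replicate 2 the difference was 29.4 points and the adjusted p was 0.0314, in a table where 7.47% of exons then passed, beside 5.69% with it. MADD and TBC1D13 passed with and without that library.

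TBC1D15, a GTPase-activating protein for Rab7 found on mitochondria, has the deepest member exon, 211 nt on chromosome 12 from 72278591 to 72278801, with a mean of 673 counts per PC3E library and 657 per GS689 library. Inclusion levels were 94.4%, 94.5% and 93.0% in PC3E and 89.7%, 91.4% and 91.1% in GS689. Every GS689 library was below every PC3E library, but the gap of 3.26 points was small and the adjusted p was 0.0866 (limma-moderated test).

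The other 7 RASL-seq exons of the members had too few counts, or too few of the rarer form (under 10), to test. DENND4C, an exchange factor for Rab10, gave 61 inclusion and 0 skipping counts for its 147 nt exon over all 6 libraries, which allows a skipping share of up to 4.92%. The 63 nt exon of MADD gave 0 inclusion counts among 133, which allows up to 2.26%. These limits cover counting error only. MADD's 150 nt exon gave 39 inclusion counts and 1 skipping count, TBC1D14's 72 nt exon 31 and 2, and TBC1D31's 116 nt exon 1245 and 5. TBC1D1, a substrate of insulin and AMPK signalling in glucose transporter traffic, gave 4 inclusion and 750 skipping counts for its 120 nt exon. TBC1D23, a protein that captures endosome-derived vesicles at the Golgi, gave 1 and 96 for its 45 nt exon. The TBC1D31 exon was at 99.2% to 100% and the TBC1D1 exon at 0% to 1.06% in every library, the former on at least 118 and the latter on at least 94 counts, and no switch between the lines was seen for either. For the shallow exons of TBC1D14 and MADD (150 nt), with 3 to 11 counts per library, a modest difference was not detectable.

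Across the 6 RASL-seq libraries, exons of the whole table whose inclusion levels were among the most like those of the MADD 60 nt exon, by root mean square difference, lay in ARHGAP44 (52 nt, 14.6 points), NAV2 (66 nt, 15.3 points), ST7 (69 nt, 16.5 points) and TBC1D13 (41 nt, 17.6 points). Each had higher mean inclusion in GS689, which follows from choosing exons by their likeness to MADD's and is no separate result. ARHGAP44 went from 34.3% to 69.8%, NAV2 from 29.1% to 58.4% and ST7 from 43.4% to 62.5%, and TBC1D13 spanned the widest range of these 4.

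All 14 RASL-seq exons were also in the RNA-seq table, so the assays can be set side by side. The mean inclusion level over 6 libraries was within 5 points for several exons that were nearly always included or skipped: TBC1D15's was 92.4% in RASL-seq and 93.9% in RNA-seq, TBC1D31's 99.6% and 99.1%, and TBC1D1's 0.55% and 0.677%. DENND4C's was 100% in RASL-seq and 91.7% in RNA-seq. The gap was wider for 4 others. The 45 nt exon of TBC1D23 was at 2.38% in RASL-seq and 78.1% in RNA-seq, and the TBC1D25 exon at 37.2% and 71.1%. MADD's 60 nt exon was at 48.2% and 30.8%, and MADD's 70 nt exon at 92.8% and 77.0%. Over the 1966 events that both tables held, Pearson's r was 0.834 between levels taken from counts summed over the 6 libraries of each assay. It is a description across exons that share libraries. In 50 of 50 pairs of RASL-seq events where 1 event's upstream exon junction is another's skipping junction, every library gave the same count for both, against 0 of 41 pairs for downstream exon junctions. The RASL-seq inclusion count is thus that of the upstream junction, while the RNA-seq level was corrected with the deposited effective lengths. Whether that difference plays a part in the gaps was not tested.

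**Figure D2:**
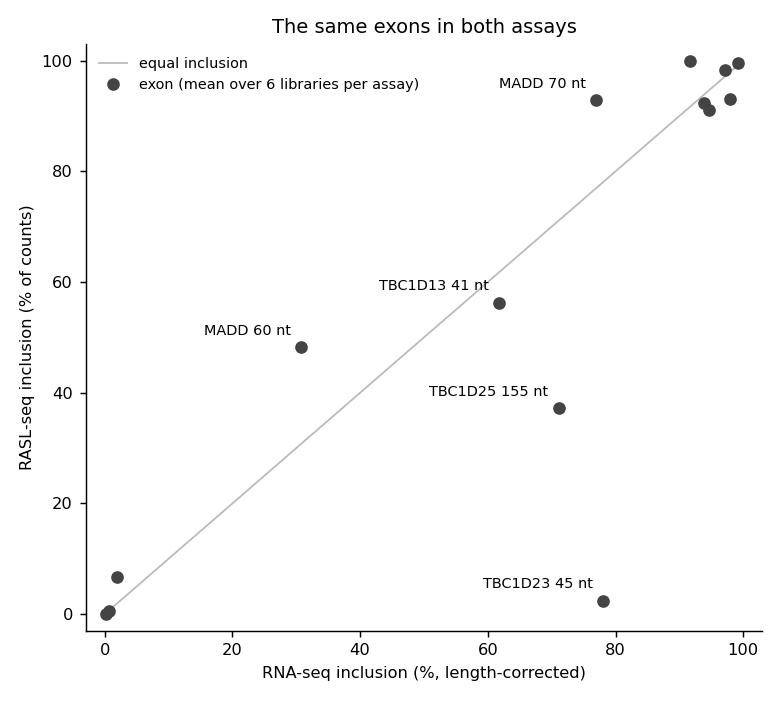
Mean inclusion level of the 14 member exons over 6 RASL-seq libraries (y axis, percent of counts) against the mean over 6 RNA-seq libraries (x axis, percent, length-corrected), 1 point per exon, with a line of equal inclusion. Most exons sit near the diagonal, and TBC1D23's 45 nt exon (2.38% against 78.1%) sits farthest from it.

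RNA-seq measured the TBC1D13 exon on more counts than RASL-seq, with a mean of 226 per library. The set 1 libraries had inclusion levels of 44.3%, 25.9% and 33.7%, and the set 2 libraries 91.8%, 85.6% and 89.7%. Counting intervals (95%, Wilson) ran from 19.2% to 53.3% over set 1 and from 81.0% to 94.6% over set 2, so the sets were apart by more than counting error. The set medians differed by 55.9 points, the largest gap of any member exon at a mean of 20 or more counts per library.

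The MADD 60 nt exon had RNA-seq inclusion levels of 19.96%, 18.4% and 23.4% in set 1 and 37.4%, 45.5% and 40.1% in set 2, on a mean of 280 counts. The sets did not overlap, their medians differed by 20.1 points, and no library exceeded 51.1% at the upper end of its counting interval. In RASL-seq, 3 of 6 libraries were above that level. MADD's 70 nt exon was at 76.0%, 69.9% and 76.3% in set 1 and 86.0%, 77.6% and 76.4% in set 2, sets that were narrowly apart. MADD's 54 nt exon was at most at 2.53% in any library. Of the 29 MADD events, 25 had mean inclusion over 95%, so the 60 nt and 70 nt exons were its only 2 variable exons between 5% and 95%.

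The TBC1D25 exon, which missed the RASL-seq threshold, had overlapping RNA-seq sets: 71.6%, 75.7% and 65.6% in set 1 and 73.7%, 70.7% and 69.4% in set 2. The DENND3 156 nt exon (93.5% to 96.3%) and the TBC1D15 exon (92.2% to 96.0%) likewise overlapped between the sets.

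In RNA-seq, 492 of the 564 member events, in 42 genes, passed the minimum of 20 counts in the mean library. Of these, 9 (1.83%) lay in sets that did not overlap and whose medians differed by at least 10 points, beside 1.69% of 97885 events in all, so the members' share was near the background. Of the 9, 8 were higher in set 2 and 1 was lower. The 8 higher ones were among 492 member events, beside 700 (0.715%) of all 97885 events that met the same conditions and were higher. Those 700 were among the 1654 events in all that met the conditions in either direction. Any separation of the sets was seen for 45 member events (9.15%, beside 9.86% of all). The median absolute gap was 0.347 points for the members and 0.171 points for all events. For 5 of the 9 exons the counting intervals of the sets were also apart. For 4 they met: TBC1D24 (18 nt), DENND3 (63 nt), DENND5A (83 nt) and DENND4C (147 nt).

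Exons of the TBC1D genes were among the 9 besides TBC1D13. TBC1D23's 45 nt exon was at 60.3%, 79.8% and 56.0% in set 1 and 92.0%, 90.2% and 90.5% in set 2, on a mean of 798 counts, the deepest of the 9. Set 1 spread over more than 20 points and set 2 over less than 2, and the medians were 30.2 points apart. The 18 nt exon of TBC1D24, whose protein joins a TBC domain to a TLDc domain and is known from inherited epilepsies, was at 11.7%, 7.57% and 13.2% in set 1 and 35.4%, 28.5% and 23.9% in set 2. Its medians differed by 16.8 points, and its counting intervals met between the sets.

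MADD's 60 nt exon was another of the 9, and the other 5 were in DENND genes. DENND3 had 2 of them, both on chromosome 8, which moved in opposite directions. Its 63 nt exon, from 142160385 to 142160447, was at 9.86%, 13.9% and 6.23% in set 1 and 30.5%, 26.0% and 17.5% in set 2, on a mean of 52.5 counts. Its 134 nt exon, from 142200383 to 142200516, was at 99.4%, 99.1% and 98.0% in set 1 and 81.3%, 91.8% and 85.9% in set 2, on a mean of 511 counts. It was the 1 member exon of the 9 that was lower in set 2.

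DENND5A, an exchange factor for Rab39 that also binds Rab6, has a coding exon of 83 nt on the minus strand of chromosome 11 from 9164950 to 9165032. It was at 63.4%, 71.3% and 67.4% in set 1 and 77.2%, 85.3% and 81.6% in set 2, with medians 14.2 points apart. A neighbouring DENND5A exon of 124 nt, from 9164269 to 9164392, fell just short of the 10-point minimum at 9.57 points, with 72.6%, 76.7% and 75.0% in set 1 and 83.2%, 88.2% and 84.6% in set 2. Both had no overlap between the sets, but they share 1 skipping junction and are not separate observations.

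DENND1A, an exchange factor for Rab35 in endocytosis, has an untranslated or non-coding exon of 129 nt on the minus strand of chromosome 9 from 126150009 to 126150137. It was nearly always skipped in set 1, at 2.63%, 2.94% and 3.48%, and was at 16.6%, 20% and 16.1% in set 2. The DENND4C 147 nt exon, on chromosome 9 from 19336684 to 19336830, was at 86.1%, 93.0% and 78.2% in set 1 and 96.0%, 96.9% and 100% in set 2. This is the exon for which RASL-seq had no skipping count.

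**Figure D3:**
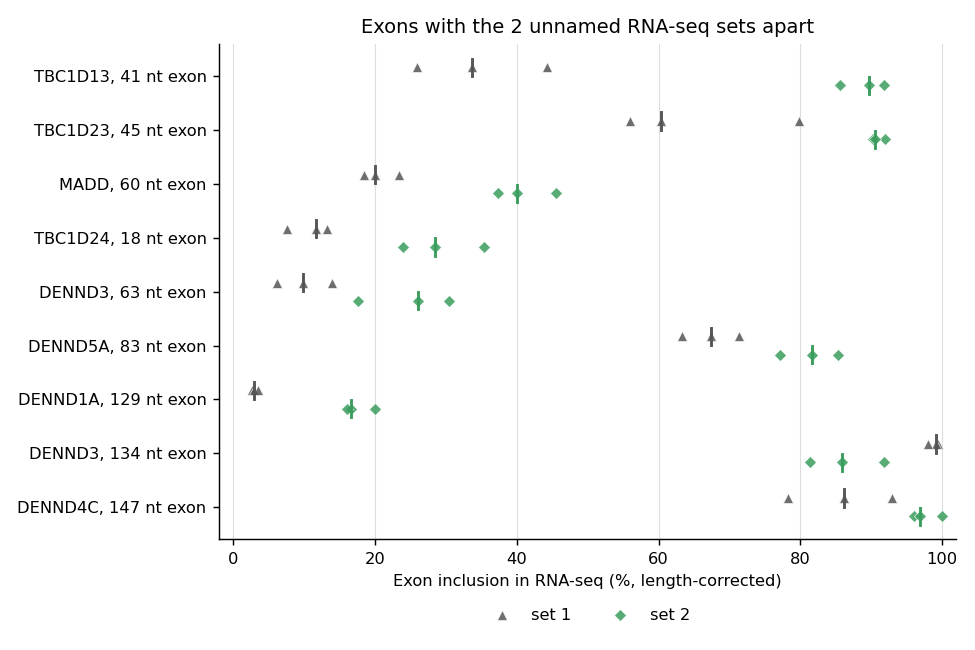
RNA-seq inclusion level (percent, length-corrected, x axis) of the 9 member exons whose sets do not overlap and whose medians differ by at least 10 points. Triangles are set 1 libraries, diamonds set 2 libraries and short vertical lines set medians, and only the DENND3 134 nt exon is lower in set 2.

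Most member exons were constitutive in all 6 RNA-seq libraries. Mean inclusion was over 95% for 377 of the 492 events (76.6%, beside 77.7% of all events), between 5% and 95% for 83 in 34 genes, and under 5% for 32. TBC1D5, a GTPase-activating protein for Rab7 that binds retromer, held 21 of the 83 variable events and DENND3 held 10. Of TBC1D5's 21, 19 were untranslated or non-coding exons, many of which share junctions. Over the 83, 60 were coding and 22 were untranslated or non-coding. A length that is a multiple of 3 was found for 28 of them (33.7%), beside 43.2% of the 15950 variable events in all.

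Summed inclusion and skipping counts gave a level per gene over the measured junctions. In RASL-seq, 0 of the 9 member genes tested passed (limma-voom, adjusted p under 0.05), beside 29.7% of 1317 totals in all. At an unadjusted p under 0.05 there were 3, and limma on log2(CPM + 1) called 1, TBC1D31. The libraries of the lines did not overlap for 4 of the 9, beside 46.4% of all. The median log2 change of the 9 was 0.04, and over all totals it was -0.005. In such bulk samples fewer cells with a transcript and less of it per cell cannot be told apart.

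TBC1D31, a protein known from centriolar satellites and cilia, had the smallest adjusted p. Its totals were 264, 296 and 317 CPM (counts scaled to the library total) in PC3E and 257, 176 and 191 CPM in GS689, a log2 change of -0.49 ± 0.18 (SE, adjusted p = 0.0571, limma-voom). TBC1D13, whose exon inclusion rose, had totals of 9.44, 13.0 and 5.60 CPM in PC3E and 22.6, 14.5 and 25.9 CPM in GS689. The groups did not overlap, and the log2 change of 1.16 ± 0.44 (SE) did not pass (adjusted p = 0.0668, limma-voom). TBC1D23 had 31.9, 19.5 and 26.9 CPM in PC3E and 7.18, 16.9 and 16.2 CPM in GS689 (log2 change -1.05 ± 0.42, SE, adjusted p = 0.0794, limma-voom). That total came from 1 event with 1 inclusion and 96 skipping counts, so it reads almost only the skipped form. Whether it follows the level of the gene was not tested. TBC1D25 was the other gene with no overlap, at 35.9 to 44.1 CPM in PC3E and 49.2 to 58.3 CPM in GS689 (log2 change 0.42, adjusted p = 0.225, limma-voom). With skipping counts alone TBC1D25's log2 change was -0.155 (adjusted p = 0.703, limma-voom). The totals of TBC1D13 and TBC1D25 also came from 1 event each, so shifts of inclusion and of gene level are not separated in them.

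MADD, summed over 5 events, had 162, 322 and 175 CPM in PC3E and 250, 255 and 215 CPM in GS689, a log2 change of 0.22 ± 0.24 (SE, adjusted p = 0.526, limma-voom). With skipping counts alone MADD's log2 change was -0.092 (adjusted p = 0.818, limma-voom). In the summed totals of MADD, PC3E replicate 2 alone was above every GS689 library. DENND3 had the same shape, with 71.3 CPM in PC3E replicate 2, 23.6 and 17.9 CPM in the other PC3E libraries, and 37.2 to 45.1 CPM in GS689. Without PC3E replicate 2, 34.9% of all totals passed and 5 of the 8 member totals tested did. MADD (log2 change 0.50, adjusted p = 0.0325, limma-voom), DENND3 (0.99, 0.0329) and TBC1D13 (1.39, 0.0406) were then higher in GS689. TBC1D23 (log2 change -1.25, adjusted p = 0.0318, limma-voom), on skipping counts almost alone, and TBC1D31 (-0.50, 0.0492) were then lower. Each of these 5 totals was weaker without some other library, with no call there and the same sign. MADD's log2 change was 0.02 (adjusted p = 0.954) without PC3E replicate 1 and 0.07 (0.893) without PC3E replicate 3 in limma-voom. DENND3's was 0.25 (0.748) and 0.03 (0.974) without the same libraries, and TBC1D23's was -0.60 (0.344) without GS689 replicate 1. TBC1D13's was 0.82 (adjusted p = 0.244, limma-voom) without PC3E replicate 3. TBC1D31's was -0.37 (0.21) without GS689 replicate 2, but -0.67 (0.033) without GS689 replicate 1.

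TBC1D15 had 687 to 910 CPM in PC3E and 766 to 856 CPM in GS689 (log2 change 0.04, adjusted p = 0.857, limma-voom). DENND4C (log2 change -0.05) and TBC1D1 (-0.19) had adjusted p-values of 0.949 and 0.547 in limma-voom. TBC1D14, with 4 to 9 counts per library, was not tested. Levels cannot be ranked between genes from these totals, since each depends on which junctions were probed.

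**Figure D4:**
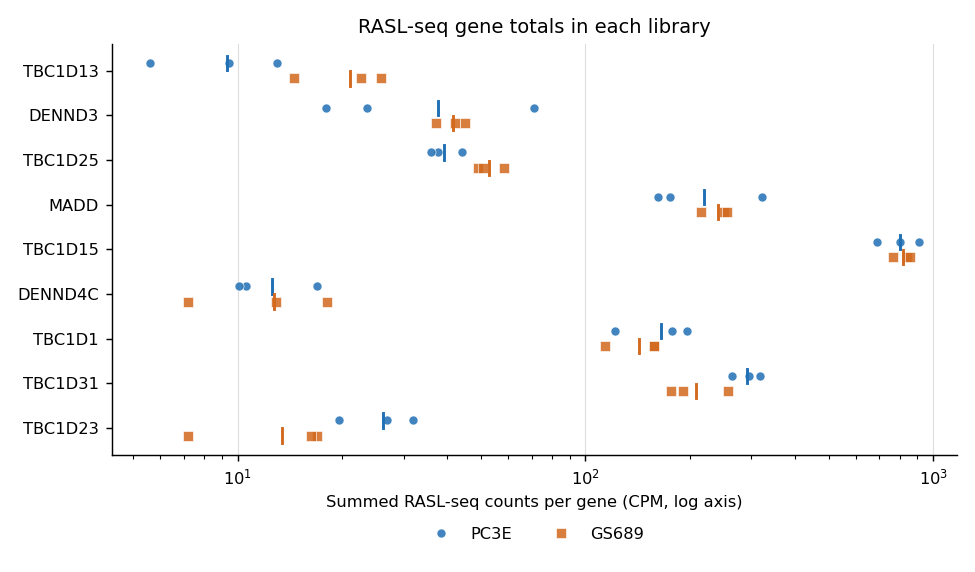
RASL-seq totals (CPM, log axis) of the 9 member genes tested, with circles for PC3E libraries, squares for GS689 libraries and short vertical lines for means. TBC1D13 and TBC1D25 are higher and TBC1D23 and TBC1D31 lower in GS689 without overlap, though 0 of the 9 passed the adjusted threshold.

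RNA-seq totals, as CPM of the table's total, could be had for all 43 member genes. These are sums over junction events in which the same read may appear more than once, and no measure of sequencing depth. The sets did not overlap for 22 of the 43 (51.2%, beside 48.1% of all), 16 higher and 6 lower in set 2. For 12 genes the sets were also apart by at least 2-fold between medians (27.9%, beside 17.9% of 16263 totals), 9 higher and 3 lower in set 2. The median ratio of set 2 to set 1 was 1.26 for the members and 1.09 for all totals. Those totals include events that were not given a gene, each kept as a total of its own.

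The widest gaps lay within the DENND2 genes, whose proteins are exchange factors for Rab9, and they ran in opposite directions. DENND2D had 19.5, 20.3 and 17.1 CPM in set 1 and 0.394, 0.484 and 0.387 CPM in set 2, or 2066 to 2283 summed counts per library against 37 to 48, a 49.4-fold lower median in set 2. DENND2A had 1.05, 0.870 and 1.33 CPM in set 1 and 16.6, 23.1 and 16.7 CPM in set 2, a 16-fold higher median. DENND2C, the other member with a DENND2 symbol, was low in both sets at 0.240 to 0.542 CPM and 0.262 to 0.309 CPM, which overlapped. In the 6 DENND2D events with enough counts, inclusion was over 95% on average. Nearly all of those counts came from set 1, so inclusion in set 2 was barely measured and cannot be compared.

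The next highest ratios were also those of exchange factors. DENND5B, the paralogue of DENND5A, had 6.99, 3.60 and 6.31 CPM in set 1 and 24.3, 21.7 and 11.8 CPM in set 2, a ratio of 3.44. DENND4A, a Rab10 exchange factor, had a ratio of 2.57 (3.76, 4.78 and 4.25 CPM against 10.9, 12.4 and 8.07 CPM). DENND5A had a ratio of 2.53, with 57.2, 67.0 and 57.2 CPM in set 1 and 164, 137 and 145 CPM in set 2. DENND6A, an exchange factor for Rab14, also had a ratio of 2.53, with 6.89 to 7.45 CPM in set 1 and 12.9 to 17.8 CPM in set 2. None of these overlapped.

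Among the GTPase-activating proteins TBC1D30, which acts on Rab8 and restrains primary cilia, was 6.87-fold lower in set 2, at 11.8, 10.2 and 8.37 CPM against 1.84, 1.49 and 1.26 CPM. TBC1D2, a Rab7 GTPase-activating protein also called Armus and known from the breakdown of E-cadherin junctions, was 2.16-fold lower, at 3.07, 2.47 and 2.46 CPM against 1.14, 1.11 and 1.27 CPM. TBC1D3B had the fifth lowest ratio, 0.673, at 0.477 to 0.621 CPM against 0.377 to 0.494 CPM. Its sets overlapped, and reads of this gene are uncertain because the TBC1D3 copies are nearly identical. TBC1D13 was 2.22-fold higher in set 2, at 9.86, 8.97 and 10.7 CPM against 23.0, 21.9 and 20.5 CPM, and TBC1D19 (2.34), TBC1D9 (2.26) and TBC1D5 (2.22) were the others above 2-fold. MADD overlapped between the sets, with 68.5, 97.4 and 87.5 CPM in set 1 and 103, 108 and 86.0 CPM in set 2.

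**Figure D5:**
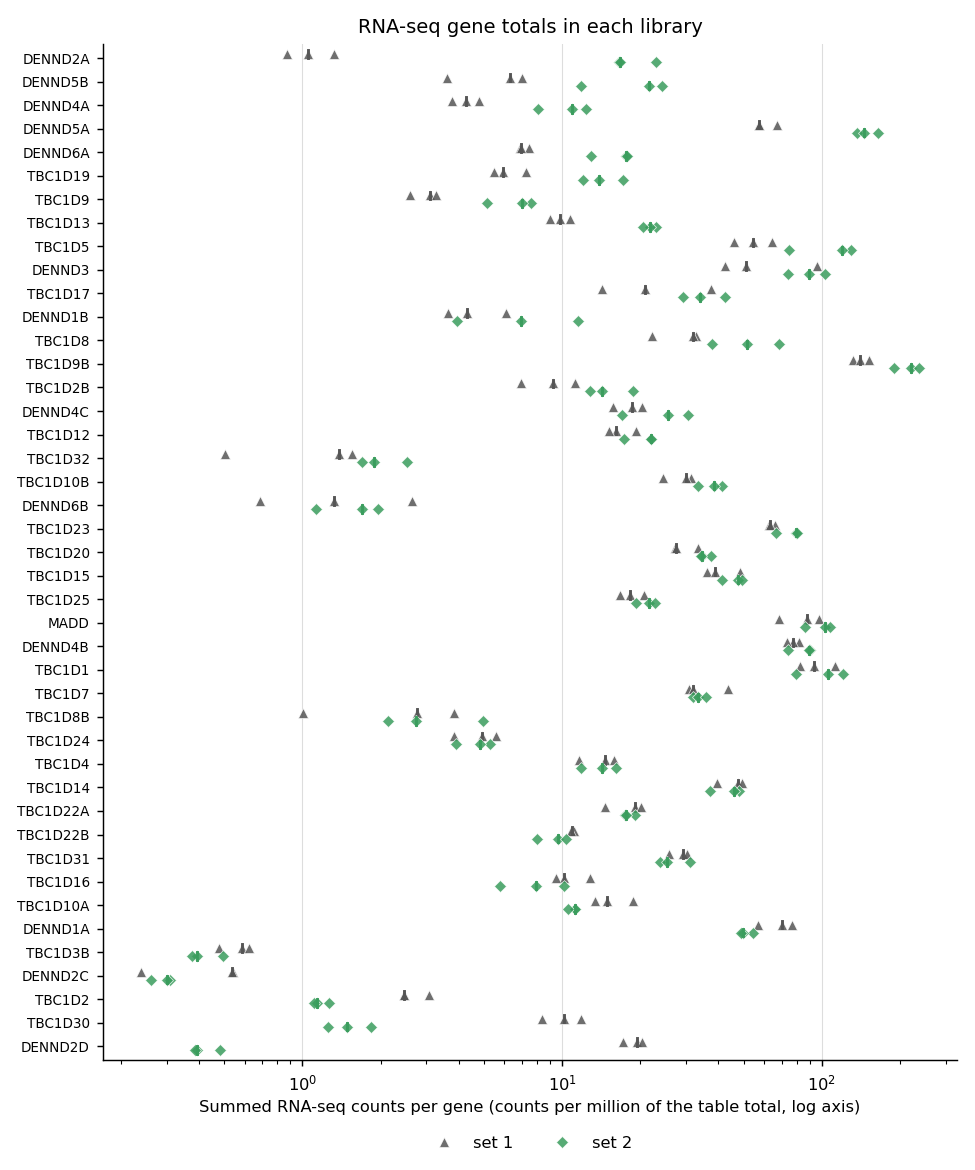
RNA-seq totals (CPM of the table total, log axis) of all 43 member genes in order of the ratio of set medians, with triangles for set 1 libraries, diamonds for set 2 libraries and short vertical lines for medians. DENND2A is higher and DENND2D lower in set 2 by more than 10-fold.

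The rest of the Rab pathway is given from lists of gene names. Of the Rab GTPases themselves, 1 exon and 5 totals could be tested in RASL-seq and 0 passed; in RNA-seq 3 of 238 exons (1.26%) were apart by 10 points. The other exchange factors (the TRAPP, RIN and similar proteins) had 2 exons and 2 totals tested, with 0 called, and 6 of 488 RNA-seq exons apart (1.23%). The other GTPase-activating proteins had 2 exons and 3 totals tested, with 0 called, and 2 of 102 RNA-seq exons apart (1.96%). The escort and GDI proteins had no RASL-seq exon tested, and 0 of 65 RNA-seq exons apart.

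Rab effectors, which bind GTP-loaded Rabs, had 5 exons tested in RASL-seq, of which 1 fell in GS689 (5.69% of all exons passed). It was the 21 nt exon of USO1, a Golgi tether for Rab1, at 79.3% ± 1.58 in PC3E and 2.35% ± 1.15 in GS689 (SD, n = 3 each, adjusted p = 7.74e-11, limma-moderated test). Of 7 effector totals, USO1 rose (log2 change 0.64 ± 0.14, SE, adjusted p = 0.00508, limma-voom) and NOSTRIN, known as an adaptor of endothelial nitric oxide synthase rather than as a Rab effector although the list holds it, fell from 21.5 ± 9.47 to 0.881 ± 0.819 CPM (SD, n = 3 each, adjusted p = 0.000514, limma-voom), beside 29.7% of all totals that passed. In RNA-seq 20 of 518 effector exons (3.86%) were apart by 10 points, beside 1.83% of the members' exons and 1.69% of all. By gene totals, 2-fold gaps were seen for 9 members higher and 3 lower in set 2 of 43. In the same order they were seen for 1 and 3 of 43 Rab GTPases and for 5 and 2 of 43 other exchange factors. The other GTPase-activating proteins had 1 and 2 of 12, the escort and GDI proteins 1 and 0 of 6, and the effectors 3 and 4 of 47. Of all totals, 17.9% had such a gap in either direction.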

How the data were processed

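Both tables were deposited by the authors with raw counts per exon event. Per the file headers, a RASL-seq cell holds an inclusion and a skipping count, and an RNA-seq cell holds the counts of the 3 libraries of an unnamed set. The submitters' processing notes name STAR 2.5.2a, kallisto 0.43.0 and hg19. How reads were counted, and whether strand was used, is not given in the sources used here. Cells were split before use, and empty RASL-seq cells were read as 0.

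Events were named by strand, exon length and intron lengths in GENCODE 29, without converting coordinates. Of RASL-seq events 95.6%, and of RNA-seq events 95.1%, matched 1 gene. One RNA-seq event that matched several TBC1D3 copies was not used. RASL-seq exons with a mean of at least 10 counts, at least 1 in each library and 10 of the rarer form were tested by a quasi-binomial F test with dispersions moderated in limma 3.58.1 (R 4.3.3) and Benjamini-Hochberg adjustment over 1124 exons. A call needed an adjusted p under 0.05 and a difference of at least 5 points. Gene totals were tested with limma-voom and trimmed mean scaling over 1317 totals. RNA-seq inclusion was corrected for length, needed a mean of 20 counts, and was not tested. The tests were also run on simulated data in which every library had the same spread. A library that stands apart, as PC3E replicate 2 did, was not simulated, so that case was not checked.

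Every member exon in the RASL-seq table is named. From RNA-seq, the 20 member exons with the largest gaps between set medians and the genes with the 5 highest and 5 lowest ratios of totals are named, and the genes above 2-fold were added after their values were seen. The 5 exons most like MADD's were taken by root mean square difference, and 1 of them is not reported here. Members and lists were chosen with earlier results of these data known. Other filters, scalings, pseudocounts, tests and left-out libraries were tried.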

Additional observations from a re-analysis of the deposited data

How the results depend on the processing

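Inclusion of the MADD 60 nt and TBC1D13 41 nt exons stayed higher in GS689 and passed in every alternative that tested them, with differences of 44.6 to 57.7 and 66.5 to 75.3 points over left-out libraries and adjusted p-values of 0.000174 to 0.0404 and 0.000218 to 0.0195 over all alternatives (limma). With a mean of at least 20 counts 4 member exons were tested and 1, MADD, passed. Over left-out libraries 2 to 3 member exons passed. Of all exons 64 passed, and 22 did under limma on log2 ratios with a pseudocount of 0.5, 25 with a smallest difference of 20 points, and 44 to 81 over left-out libraries. Of gene totals 391 passed, 249 with skipping counts alone and 253 to 450 over left-out libraries. The member totals called were 0, and 1 (TBC1D31) with the highest event of each gene, with limma on log2(CPM + 1), and with a replicate block. Over left-out libraries they were 0 to 5, the 5 without PC3E replicate 2 and 1, TBC1D31 (log2 change -0.67, adjusted p = 0.033, limma-voom), without GS689 replicate 1.

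The replicate block called 88 exons and 464 gene totals, and kept MADD and TBC1D13. The deviations of same-numbered libraries correlated at 0.037, 0.004 and 0.034 for log2 ratios and at 0.269, 0.172 and -0.014 for log2 CPM. For CPM, replicates 1 and 2 of the lines correlated best with their own number and replicate 3 did not. Whether the numbers pair the libraries was thus not settled for the totals. The 9 member exons apart in RNA-seq were 8 to 9 over alternatives, and the 12 totals 8 to 12, with 8 from counts as deposited, an alternative added after seeing the data. Depth limits the RASL-seq exons of TBC1D13, TBC1D14, TBC1D23 and DENND4C, and the 63 nt and 150 nt exons of MADD. Each had under 25 counts per library on average in at least 1 line.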

Other observations

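Of the 20 member exons with the largest gaps between set medians in RNA-seq, 10 had sets that overlapped, and most of these were shallow. DENND2A's 102 nt untranslated exon, on chromosome 7 from 140305505 to 140305606, had 100%, 100% and 9.09% in set 1, on 5, 1 and 12 counts, and 68.6%, 64.1% and 80.6% in set 2, on 59, 128 and 56 counts. Its gap of -31.4 points thus rests on few set 1 counts. The 95 nt exon of DENND6B, on chromosome 22 from 50752829 to 50752923, was at 100%, 95.2% and 69.3% in set 1 and 67.5%, 83.1% and 67.5% in set 2, on a mean of 30.5 counts. The 66 nt exon of DENND5B, on chromosome 12 from 31652540 to 31652605, was at 67.3%, 23.3% and 72.1% in set 1, where replicate 2 stood below every other library, and at 46.3%, 63.3% and 43.2% in set 2.

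DENND1B's 70 nt exon, on chromosome 1 from 197627430 to 197627499, was at 69.98% to 78.5% in set 1 and 76.6% to 95.5% in set 2. TBC1D12's 110 nt exon, on chromosome 10 from 96282101 to 96282210, was at 84.0% to 100% in set 1 and 82.4% to 89.7% in set 2.

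The other 5 were TBC1D5 events on chromosome 3. A 118 nt exon from 17664140 to 17664257 was measured against 3 pairs of neighbouring junctions and was at 84.0% to 100%, 89.7% to 100% and 16.3% to 37.5% in set 1, and at 60.9% to 95.7%, 76.2% to 91.7% and 21.8% to 29.3% in set 2. One exon thus had a high or a low inclusion level depending on the pair of junctions. TBC1D5's 124 nt exon, from 17603511 to 17603634, was at 33.3% to 67.9% in set 1 and 49.1% to 63.4% in set 2, and its 94 nt exon, from 17560394 to 17560487, at 7.98% to 26.9% and 11.2% to 24.3%. In all 5 TBC1D5 events, gaps ran lower in set 2, with overlap.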
